A study of Mus musculus with 45 samples.

Results

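The cytosolic ribosomal protein genes encode the proteins of the large (Rpl) and small (Rps) ribosomal subunits. They were followed here in strand-specific RNA-seq of differentiating male mouse embryonic stem cells (ESCs). Members were all rows whose symbol has the form Rpl or Rps with a number and whose mean over the libraries was at least 10 CPM (counts scaled to a common library total). Rplp and Rpsa were included, and Rps6k rows and pseudogene rows marked -ps in the symbol were excluded. Of 85 symbols of this form, 84 met the level, 51 of the large and 33 of the small subunit, among 35372 genes counted. The gene that did not was Rpl3l, at a mean of 0.29 CPM. Of the 84 members, 83 are annotated as protein-coding, and Rps4l is annotated as a transcribed processed pseudogene. Of the members, 7 are second copies (paralogs) of another member: Rpl10l, Rpl39l, Rps4l, Rpl7l1, Rpl36al, Rpl22l1 and Rps27l. Reads of such copies, and of the many ribosomal protein pseudogenes, can fall on the wrong copy, so their values are uncertain to that extent.

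The 45 libraries came from E14tg2a cells, a wild-type 129/Ola line, so all groups are 1 line with no engineered allele. Before differentiation the cells were kept either in 2iL (serum-free N2B27 with the inhibitors CHIR99021 and PD0325901 and with LIF) or in SL (serum with LIF). They were then differentiated along 3 courses, named here as the sample labels name them: EB (suspension in serum without LIF), EpiSC (adherent N2B27 with Fgf2 and ActivinA) and Neural (adherent N2B27 alone). Libraries were taken at days 0, 1, 1.5, 2, 2.5, 3, 5 and 7, with 23 libraries started from 2iL and 22 from SL. Each medium, course and day is 1 library, and SL at day 0 is a single library shared by the 3 courses. None of the 45 libraries is day 5 of the EpiSC course from 2iL. The 3 courses of a day were therefore the only replicates of that day, and nothing in the labels names separate cultures. p-values then measure only the spread between these libraries.

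Ribosomal protein mRNAs are among the most abundant in growing cells. In mammals they share a start of pyrimidines, the 5′ terminal oligopyrimidine (TOP) tract, through which mTOR signalling sets how well they are translated, and Myc is a known activator of ribosome production. Most members exist as a single active gene, but a few have a second copy that is used in some tissues, such as Rpl10l and Rpl39l in male germ cells and Rpl3l in muscle. RNA levels do not report translation, and in bulk samples fewer cells of a type and less RNA per cell cannot be told apart.

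Total counts per library ran from 13093226 to 39804240 (median 18222720). The members took between 3.19% and 6.40% of all counts of a library. Counts on protein-coding genes were 75.4% to 85.0% of the total in Neural libraries, 81.7% to 91.7% in EB and 80.9% to 92.4% in EpiSC libraries. Levels below are CPM scaled with edgeR's TMM factors over the 45 libraries, which corrects for such differences in composition, and differences are log2 values from edgeR. A gene was called at a Benjamini-Hochberg adjusted p under 0.05 over all genes tested. The share of all genes called in a direction is given beside each first count of members, as the background.

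The undifferentiated state was present at day 0 and lost later. The summed level of 8 naive marker genes was 4696 to 4979 CPM in the 3 libraries in 2iL at day 0 and 2906 CPM in SL, against 146 to 488 CPM at day 7. The blood marker list stayed at or under 22.2 CPM in sum in every library.

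Most members varied less than the median gene at 10 CPM or more, a set not matched to them in abundance, and a few second copies varied more. The standard deviation of the log2 level over the 45 libraries had a median of 0.24 for the 84 members and of 0.34 for the 9132 genes at 10 CPM or more, and 77 members lay under the latter value. The 3 most variable members were Rpl10l (2.24), Rpl39l (2.05) and Rps4l (0.78), all second copies, and Rps27 followed with 0.45. The most abundant members were Rpsa, the laminin receptor-like protein of the small subunit, with 1364 to 2724 CPM, Rpl4 with 1219 to 2428 CPM and Rps2 with 946 to 2272 CPM. Their lowest level was in each case the Neural library of day 7 from 2iL.

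For 63 members RefSeq (GRCm38.p6) gives a window around a gene start. The letters CTTTCC, part of a pyrimidine tract, occurred on the gene strand within 20 bases of the start in 11 of the 63 members (17.5%), against 2.30% of 27025 genes with a window. The longer CTCTTTCC, which contains them, occurred in 3 members (4.76%) against 0.207% of all genes. CCGGAAG, a core of the sites that ETS-family factors bind, was found on either strand of the 300-base window in 26 members (41.3%) against 9.93% of all genes, whereas TATAAA, searched in the same way, was found in 7 (11.1%) against 15.7%. The following 40 bases span each start from 20 bases before it, with CTTTCC in capitals; the first 3 are ordinary members with the letters, and the rest are second copies and parents whose levels are followed below.
Rpl28 (chr7:4792945-4792984, plus strand): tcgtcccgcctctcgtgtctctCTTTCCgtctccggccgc
Rps10 (chr17:27635225-27635264, minus strand): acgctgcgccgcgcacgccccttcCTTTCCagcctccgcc
Rps27 (chr3:90213629-90213668, minus strand): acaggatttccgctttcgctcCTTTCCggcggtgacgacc
Rpl10 (chrX:74270796-74270835, plus strand): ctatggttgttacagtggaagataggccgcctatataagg
Rpl10l (chr12:66284382-66284421, minus strand): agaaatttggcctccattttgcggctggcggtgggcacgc
Rpl39 (chrX:37085203-37085242, minus strand): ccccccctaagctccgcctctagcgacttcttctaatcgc
Rpl39l (chr16:10170208-10170247, plus strand): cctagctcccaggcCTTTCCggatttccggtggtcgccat
Rpl39l holds the letters just before its annotated start, and Rpl10, Rpl10l and Rpl39 do not hold them in these windows. A match describes the letters only.

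At the late days the summed level of the members was lowest in the Neural libraries. Summed over the 84 members, the 3 libraries in 2iL at day 0 were at 51202, 61769 and 61210 CPM and the SL library at 60452 CPM. At days 5 and 7 the 4 Neural libraries were at 32332 to 38879 CPM, the 4 EB libraries at 41688 to 56257 CPM and the 3 EpiSC libraries at 44681 to 48403 CPM. The Neural range lay under both others, and the EB and EpiSC ranges overlapped. As a share of counts on protein-coding genes alone, the order was the same, with 4.24% to 4.96% in Neural, 5.45% to 7.04% in EB and 5.63% to 6.10% in EpiSC libraries.

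**Figure D1:**
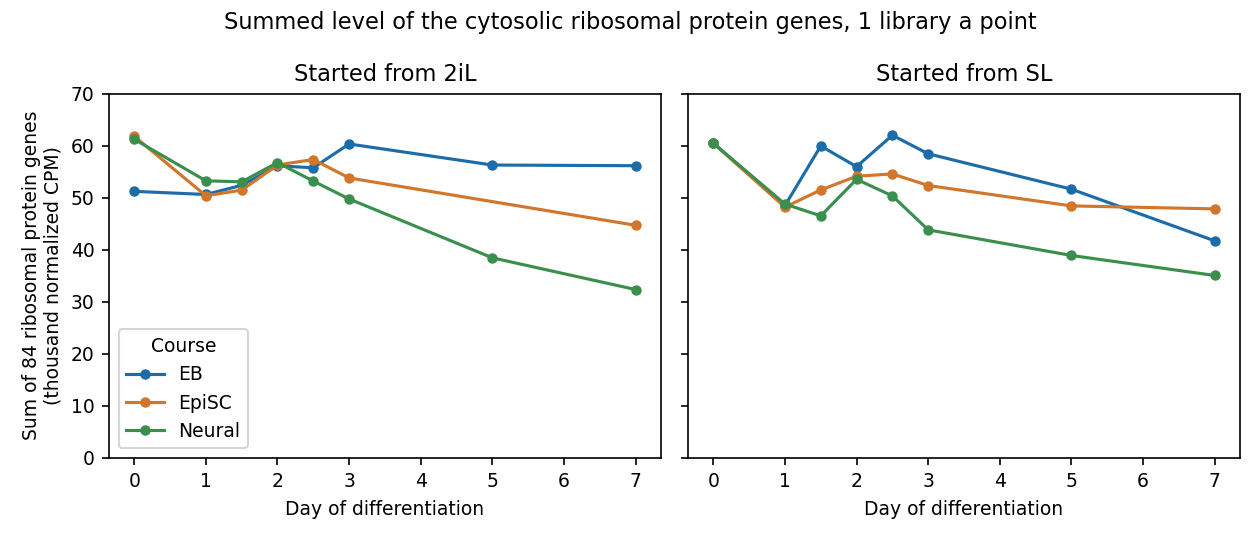
Summed level of the 84 members, in kilo-CPM after normalization, against the day of differentiation, with 1 point a library, colours for the courses, and the medium before differentiation in the 2 panels; SL has 1 shared library at day 0. The 4 Neural libraries of days 5 and 7 lie between 32332 and 38879 CPM, below all EB and EpiSC libraries of those days.

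In EB against Neural at days 5 and 7, over both media, 67 of 84 members were higher and 3 were lower, where 24.2% of all genes tested were higher and 23.6% lower. The median difference was 0.46 (log2) for the members and 0.00 for all genes. In EpiSC against Neural at the same days, 59 members were higher and 1 was lower, against 19.2% and 16.1% of all genes, with a median of 0.39. These comparisons share the Neural libraries. Their only replicates of a course and day were the 2 media, which are different starting conditions. In single libraries the median of EB minus Neural was 0.51 and 0.72 at days 5 and 7 from 2iL, and 0.40 and 0.21 from SL. For 55 members all 4 EB libraries, and for 62 members all 3 EpiSC libraries, lay above all 4 Neural libraries. For 1 member in each comparison they all lay below. These counts were not made over all genes, so they have no background share beside them and cannot be read as particular to the members. Both subunits took part, with medians of 0.47 (Rpl) and 0.43 (Rps) in EB and of 0.43 and 0.32 in EpiSC. In a list of 9 members with mutations known in Diamond-Blackfan anemia, which need not be complete, 8 were higher in EB and 4 in EpiSC. Among all 84 members these counts were 67 and 59. With the 2iL libraries left out, 39 members were called in EB against Neural (38 higher), and with the SL libraries left out, 75.

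Single members show the size of this gap. Rplp0, the protein that anchors the P stalk where elongation factors bind, was at 1047 and 788 CPM in the Neural libraries from 2iL (days 5 and 7) and at 1008 and 822 CPM in those from SL. It was at 1836, 1535, 1465 and 1221 CPM in the EB libraries in the same order, and at 1228 (2iL day 7), 1428 and 1315 CPM (SL) in the EpiSC libraries. Every EB and EpiSC library was above every Neural library, with differences of 0.72 ± 0.07 (SE) for EB and 0.59 ± 0.08 for EpiSC (edgeR adjusted p = 8.0e-08 and 8.4e-06). Rpl12, part of the base of the same stalk, ran from 483 to 659 CPM in Neural, 771 to 1351 CPM in EB and 827 to 872 CPM in EpiSC libraries. It had the largest rise in EB after Rpl22l1 (0.89 ± 0.10), and Rps26, a small-subunit protein near the mRNA exit, was at 0.73 ± 0.09 in EB and 0.59 ± 0.10 in EpiSC. Of the other stalk proteins, Rplp2 was higher in both (0.42 and 0.33) and Rplp1 was called in neither.

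Among the 14 members not called in EB against Neural were Rps28 (-0.05), Rps29 (0.01), Rpl7l1 (0.05) and Rps27l (0.07). The 3 that were lower, Rpl39l (-2.82), Rpl10l (-1.53) and Rps4l (-0.60), are second copies with low late levels, described below. In EpiSC against Neural, Rpl39l was the lower one (-1.82 ± 0.44). The 4 X-linked members (Rps4x, Rpl10, Rpl36a, Rpl39) were all higher in EB, and all but Rpl36a in EpiSC.

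**Figure D2:**
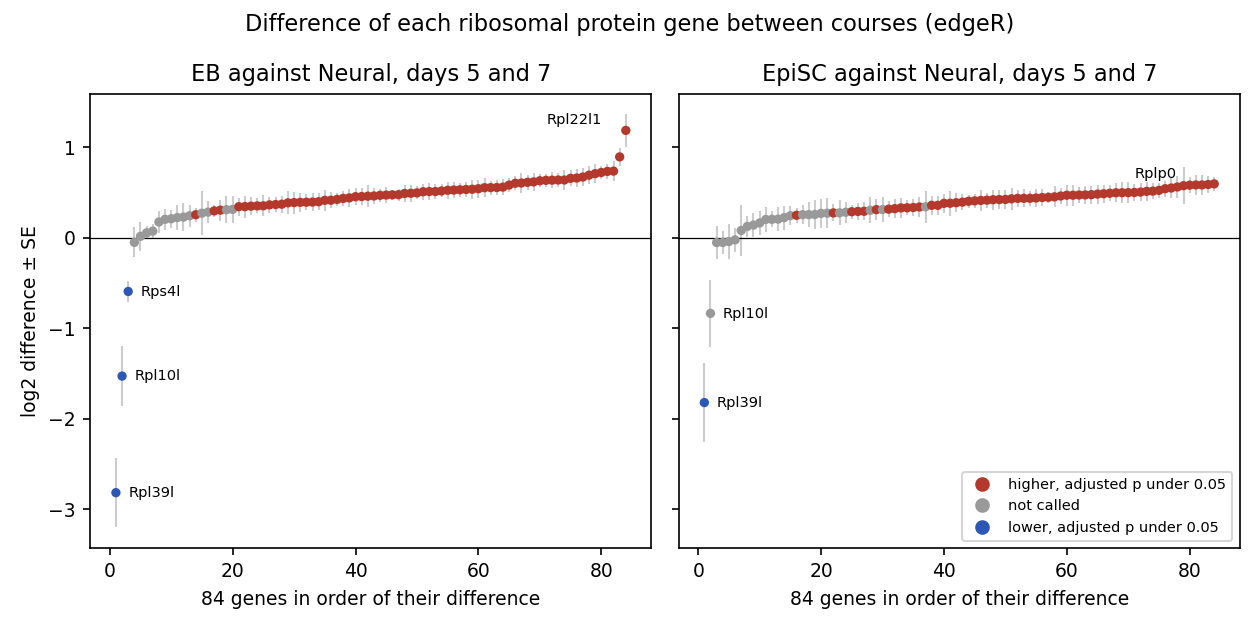
Log2 difference (± SE) of each of the 84 members between courses at days 5 and 7, in order of size, for EB against Neural (left) and EpiSC against Neural (right); red marks genes called higher, blue called lower and grey not called. Most members lie above 0, with medians of 0.46 and 0.39, and the points far below 0 are Rpl39l and Rpl10l, with Rps4l in EB.

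Other genes of ribosome production differed in the same comparison. Of 44 ribosome biogenesis factors, which build the subunits in the nucleolus, 30 were higher in EB and 35 in EpiSC and none was lower, with Npm1, a nucleolar chaperone, at 0.73 and 0.64. Of 18 translation factors and related genes with TOP mRNAs, 16 and 12 were higher, such as the elongation factor Eef2 at 0.77 in EB. Of 7 snoRNA host genes tested, 6 and 5 were higher, led by Snhg4 (1.20 and 0.90). Larp1, which binds TOP mRNAs, was higher in both (0.83 and 0.63), and so was Myc (0.99 and 1.12). Mycn was lower in both (-0.39 and -0.50), and Mycl was lower in EpiSC (-0.98) and not called in EB (-0.55). Of 73 mitochondrial ribosomal proteins, 22 were higher and 9 lower in EB, and 29 higher in EpiSC. Fau and Gnb2l1 encode cytosolic ribosomal proteins under other symbols. The difference was 0.51 in EB and 0.34 in EpiSC for Fau, and 0.53 and 0.41 for Gnb2l1, all called higher.

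Markers of other cell types moved with the same libraries. Of 7 markers of extraembryonic endoderm, 6 were lower in EB and 7 in EpiSC than in Neural, Afp being the one higher in EB. Their summed level was 1152 to 2587 CPM in the late Neural libraries, 106 to 345 CPM in EpiSC, 104 and 210 CPM in EB from 2iL, and 1045 and 1407 CPM in EB from SL, so that 1 EB library from SL, that of day 7, lay within the Neural range of these markers. Of 5 neural progenitor markers, 5 were lower in EB and 3 in EpiSC, and of 4 neuron markers 4 and 3. All 4 epiblast markers were higher in both EB and EpiSC, and 6 of 6 mesoderm markers in EB and 3 of 6 in EpiSC. Of 5 fibroblast markers, 1 was higher and 2 were lower in EB, and 4 were higher in EpiSC. The share of protein-coding counts was also lower in the late Neural libraries (75.4% to 79.6%) than in EB (81.7% to 87.9%). From 2iL this share was not particular to the late days. At day 0 it was already 82.4% in the Neural library, against 90.5% in EB and 92.0% in EpiSC. The part of these cell types, and of this share, in the result was not tested. With the fit made on protein-coding rows alone, an alternative added after seeing the data, 67 members were higher and 2 lower in EB, and 59 higher and 1 lower in EpiSC.

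At days 1 to 2 the courses were close. In EB against Neural 14 members were higher and 4 lower, against 17.6% and 15.2% of all genes, with a median of 0.04. The largest rises were Rpl39 (0.37 ± 0.09) and Rpl23 (0.32 ± 0.08). The falls were Rpl39l (-0.57), Rpl10l (-0.49), Rps28 (-0.43) and Rps4l (-0.25). From SL alone 8 were called, all higher, and from 2iL alone 8 were higher and 22 lower, a difference between media that was not tested. In single libraries the median of EB minus Neural was -0.12, -0.07 and -0.07 at days 1, 1.5 and 2 from 2iL, and -0.02, 0.37 and 0.05 from SL. In EpiSC against Neural at days 1 to 2, edgeR called no member (1.75% of all genes higher and 1.35% lower), 13 had an unadjusted p under 0.05, and DESeq2's Wald test called 7. Scaling by library totals alone moved the median of all genes by 0.12 in this comparison, to 0.12, and gave 11 higher members there and 33 higher in EB.

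From day 0 to day 1 most members had estimates below 0 in both media, 76 in SL and 73 in 2iL. More of them were called in SL, a difference between media that was not tested. In SL, 1 member was higher and 19 were lower, against 8.46% and 9.69% of all genes, with a median of -0.34 for the members and -0.01 for all genes. Rpl12 was at 1451 CPM in the SL library of day 0 and at 985 (EB), 911 (EpiSC) and 908 CPM (Neural) at day 1, a fall of -0.65 ± 0.16 (edgeR adjusted p = 0.012). Rps20 went from 787 CPM to 512, 496 and 525 CPM (-0.64 ± 0.17), and all day 1 libraries were below the day 0 library for both genes. The member that rose was Rpl7l1, a homologue of Rpl7 (179 CPM to 261, 252 and 261 CPM, 0.51 ± 0.12). All falls from day 0 in SL rest on the 1 shared library, and none was called with the EpiSC course left out, 10 without the Neural course. In 2iL, 2 members were lower at day 1 and none higher (14% and 14.6% of all genes), with a median of -0.16. They were Rpl19 (-0.29) and Rps27l (-0.24), an Rps27 homologue that p53 is known to activate. With the EB course left out 7 were called, and without the EpiSC or the Neural course none.

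At days 1.5 and 2 from 2iL, early in the exit from the naive state, when the study followed X-linked genes, 4 members were lower than at day 0 and none was higher, against 23.1% and 24.7% of all genes. They were Rpl10l (-0.81), Rpl31 (-0.34), Rpl19 (-0.28) and Rps27l (-0.21). Without the EB course 14 were called, and without the EpiSC course none. The X-linked Rps4x (0.00 ± 0.13), Rpl10 (-0.03 ± 0.10), Rpl39 (-0.17 ± 0.15) and Rpl36a (-0.23 ± 0.13) were not called. In the same comparison 31 of 44 ribosome biogenesis factors were higher and none lower, such as Ebna1bp2 (1.04) and Rrn3, a factor of RNA polymerase I (0.92), and Myc was higher by 4.06.

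Between day 1 and day 3, second copies made up the members called lower, and few ordinary members were called. In 2iL, 4 members were lower and none higher at day 3 (22% and 23.6% of all genes), and in SL 5 were higher and 4 lower (21.6% and 19.8%). All 4 that were lower were Rpl10l, Rpl39l, Rps4l and Rpl7l1 in each medium. Those higher in SL included Rps26 (0.33 ± 0.10), Rplp0 (0.29), Rps10 (0.26) and the X-linked Rpl10 (0.21 ± 0.08, edgeR adjusted p = 0.0496). Rps26 was at 390 (EB), 411 (EpiSC) and 390 CPM (Neural) at day 1 and at 625, 482 and 392 CPM at day 3, so that the Neural libraries of the 2 days were close. With the EB or the EpiSC course left out none of the 84 was higher in SL, and without the Neural course 12 were. Within single courses, 1 library against 1 and with no test between courses, the median change over the members was 0.25 in EB, 0.07 in EpiSC and -0.12 in Neural from 2iL, and 0.23, 0.09 and -0.19 from SL. Ribosome biogenesis factors were lower in these comparisons, 25 of 44 in 2iL and 27 in SL with 1 higher, for instance Ubtf, a polymerase I factor (-1.03 and -0.80).

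From day 3 to day 7 no member was called higher. In 2iL 12 members were lower, against 13.9% of all genes lower and 14.3% higher, so that the count of lower members was near the background share. In SL 32 were lower, against 14.6% of all genes lower and 15.4% higher. The median was -0.24 for the members and 0.03 for all genes in each medium. All 84 estimates in SL and 83 in 2iL were below 0. Of the members called lower, 6 of the 12 in 2iL and 6 of the 32 in SL were second copies. Outside them, the largest falls were Rplp1, a P stalk protein, at -0.53 ± 0.15 in 2iL, and Rplp0 at -0.46 ± 0.10 and Rpl29 at -0.46 ± 0.14 in SL. Rplp0 in SL was at 1831, 1625 and 1265 CPM at day 3 and 1221, 1315 and 822 CPM at day 7 (EB, EpiSC, Neural), lower in each course. In single courses, 1 library against 1, the median change was -0.05 in EB, -0.24 in EpiSC and -0.60 in Neural from 2iL, and -0.47, -0.11 and -0.26 from SL. Leaving out the EB course gave 49 called members in 2iL and 5 in SL, the EpiSC course 6 and 10, and the Neural course 5 and 15. Beside them, 34 of 44 ribosome biogenesis factors were lower in 2iL and 40 in SL, with Dkc1, the pseudouridine synthase of ribosomal RNA, at -1.14 and -0.91. Of 73 mitochondrial ribosomal proteins, 27 and 31 were lower.

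**Figure D3:**
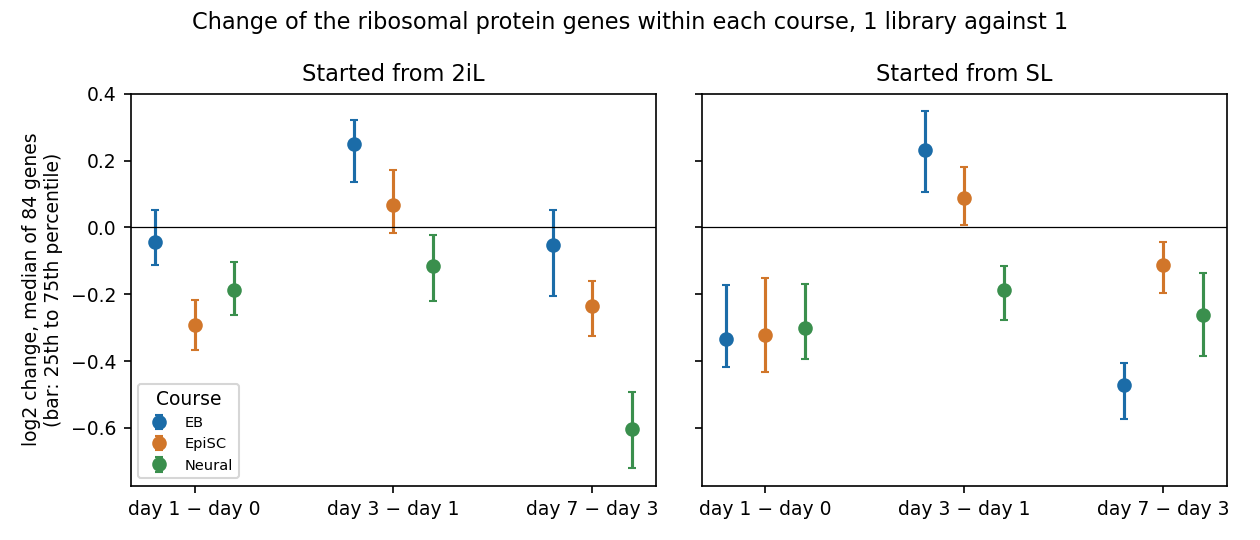
Median log2 change of the 84 members between pairs of days within each course, 1 library against 1, with bars from the 25th to the 75th percentile of the members. From day 1 to day 3 the EB medians are 0.25 and 0.23 and the Neural medians -0.12 and -0.19; the bars show the spread over genes, not over replicates.

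Between the media, the second copies led the calls at day 0 and few ordinary members were called. At day 0, 4 members were higher and 1 lower in 2iL than in SL (13.5% and 17.3% of all genes), with a median of -0.11, in a test that takes its spread from the 2iL libraries alone. The 4 higher ones were the second copies Rpl39l, Rpl10l, Rpl36al (0.70 ± 0.18) and Rps4l (0.67 ± 0.18), and without the Neural library of 2iL 4 were higher and 5 lower. At days 1 to 2, 16 were higher and 5 lower (21.8% and 22.5%), with a median of 0.02. Outside the second copies the differences were between -0.59 and 0.25, such as Rps26 (0.25 ± 0.06) and Rpl15 (0.22). Without the EpiSC course 6 were called, all higher, without the Neural course 10 were higher and 10 lower, and with library totals alone as the scaling 9 were higher and 8 lower. At days 5 and 7 edgeR called no member (1.41% of all genes higher and 1.89% lower), 9 had an unadjusted p under 0.05, and DESeq2's Wald test called 3. The change of the difference between media from days 1 to 2 to days 5 and 7 was called for 4 members, 2 in each direction (8.92% and 7.25% of all genes), and these were Rpl10l and Rpl39l, with a fall, and Rplp0 and Rps27l, with a rise. With any course left out, none of the changes called was a rise: 11 falls were called without the EB course, 2 without EpiSC and 2 without Neural.

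Rps27, a zinc-finger protein of the small subunit, was lower in 2iL than in SL at day 0 (-0.93 ± 0.30, edgeR adjusted p = 0.042) and at days 1 to 2 (-0.59 ± 0.17). At day 0 it was at 66.1 (EB), 52.5 (EpiSC) and 105 CPM (Neural) in 2iL and at 137 CPM in SL. The EpiSC course from 2iL stood lowest throughout, at 37.4 to 59.2 CPM over its 7 libraries, while the Neural course from 2iL was at 77.3 to 114 CPM and the EpiSC course from SL at 96.8 to 111 CPM. A retrogene row, Rps27rt, was at 177 to 343 CPM and shares sequence with Rps27, so reads may be split between them.

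Rpl10l, an intronless copy of the X-linked Rpl10 on chromosome 12 (12:66283379-66284401, minus strand, GRCm38), behaved unlike its parent. In 2iL it was at 116, 131 and 125 CPM at day 0 (EB, EpiSC, Neural), at 82.5, 98.2 and 116 CPM at day 1, at 8.87, 13.9 and 12.2 CPM at day 3, and at 0.274, 0.672 and 1.99 CPM at day 7. In SL it was at 24.4 CPM at day 0, 30.4, 35.0 and 33.4 CPM at day 1, 4.68, 7.95 and 7.0 CPM at day 3, and 1.67, 0.253 and 1.98 CPM at day 7. The days did not overlap between day 1, day 3 and day 7 in either medium, and every 2iL library of days 0 to 2 was above the SL libraries of its day. The fall was -3.08 ± 0.32 from day 1 to day 3 and -3.78 ± 0.38 from day 3 to day 7 in 2iL, and -2.33 ± 0.37 and -2.27 ± 0.42 in SL. The difference between media was 2.29 ± 0.19 at day 0 and 1.76 ± 0.13 at days 1 to 2 (adjusted p = 8.6e-05 and 2.2e-09), and at days 5 and 7 it was -0.78 ± 0.31 (adjusted p = 0.17). Rpl10 itself was at 576 to 1010 CPM over all libraries. Per kilobase of exon and over all libraries, the mean level was 32.4 CPM for Rpl10l and 410 CPM for Rpl10.

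Rpl39l, the second copy of the X-linked Rpl39, lies on chromosome 16 (16:10170226-10174911, plus strand). In 2iL it was at 43.4, 55.5 and 63.5 CPM at day 0 and kept a level of 39.4 to 84.5 CPM to day 2, the highest being the Neural library of day 2. It was then at 8.27, 21.4 and 25.04 CPM at day 3 and at 0.0746, 0.432 and 3.45 CPM at day 7, where the EB library held 3 counts. In SL it was at 7.86 CPM at day 0, 21.0, 23.04 and 24.5 CPM at day 1, 3.02, 7.19 and 6.11 CPM at day 3, and 1.07, 0.355 and 2.97 CPM at day 7. All SL libraries of day 1 were above that of day 0, a difference of 1.54 ± 0.56 that was not called (adjusted p = 0.066). Against SL, the level in 2iL was higher by 2.73 ± 0.27 at day 0 and by 1.60 ± 0.16 at days 1 to 2. In both media the Neural library was the highest of day 7. Rpl39 was at 122 to 291 CPM in the same libraries.

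**Figure D4:**
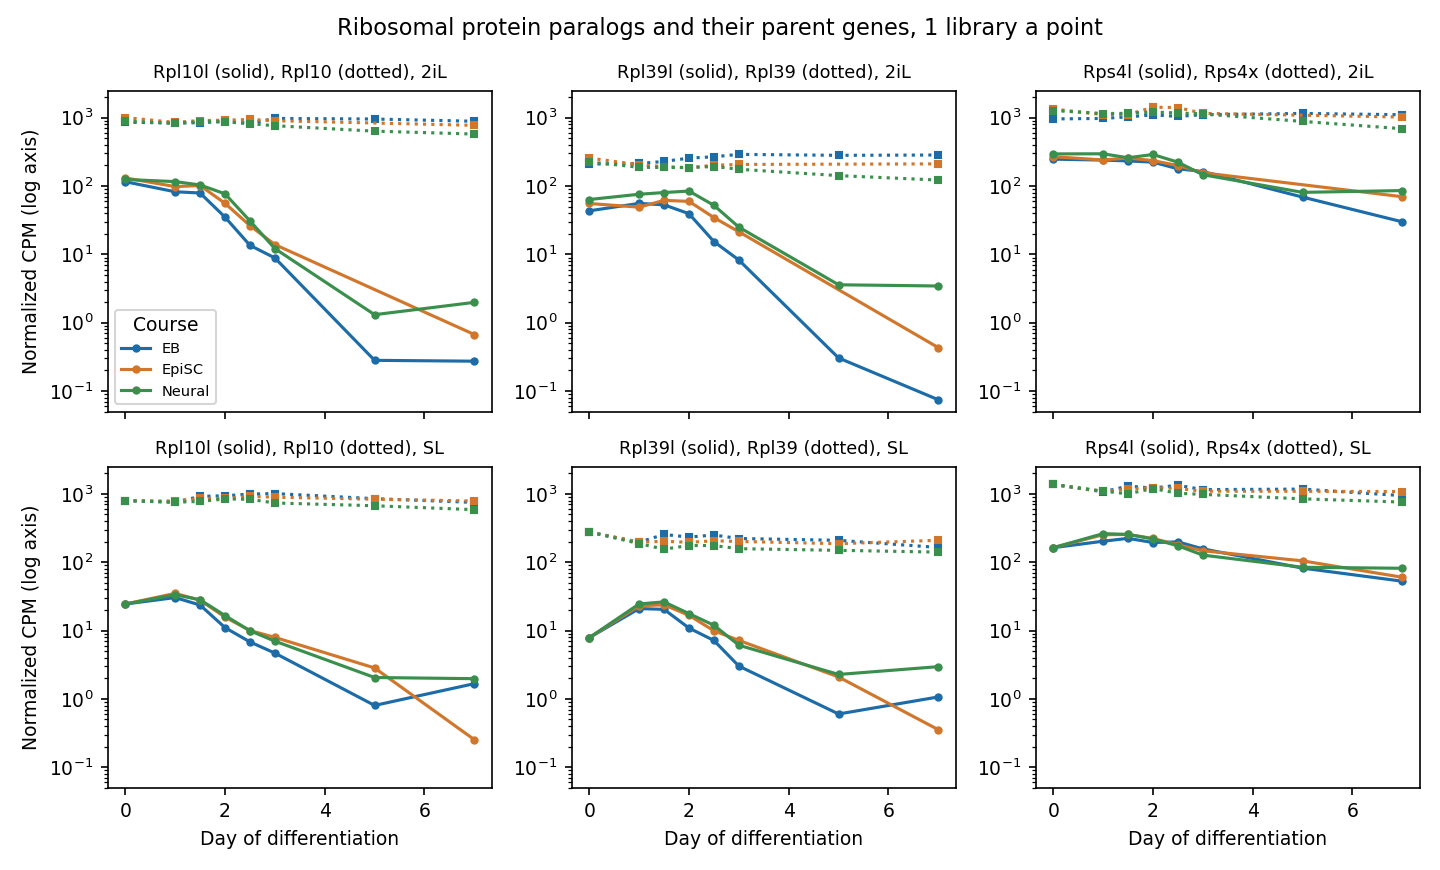
Normalized CPM, on a log axis, of Rpl10l, Rpl39l and Rps4l (solid) and of Rpl10, Rpl39 and Rps4x (dotted) against the day, with 1 point a library and a colour for each course, for cells from 2iL (top) and SL (bottom). Rpl10l falls from 116 to 131 CPM in 2iL at day 0 to at most 1.99 CPM at day 7, while Rpl10 stays between 576 and 1010 CPM.

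Rps4l, annotated as a transcribed processed pseudogene of the X-linked Rps4x (6:148354656-148355598), had a smaller fall than Rpl10l and Rpl39l. It was at 247, 269 and 295 CPM in 2iL at day 0 and at 163 CPM in SL, at 163, 156 and 146 CPM (2iL) and 157, 147 and 127 CPM (SL) at day 3, and at 30.0, 69.8 and 85.9 CPM and 52.8, 60.3 and 81.6 CPM at day 7. The change from day 1 to day 3 was -0.70 ± 0.20 in 2iL and -0.70 ± 0.14 in SL, called lower in both. Day 7 was below day 3 in all 6 courses, by -1.37 ± 0.20 in 2iL and -1.13 ± 0.14 in SL. Rps4x was at 690 to 1423 CPM. The copy resembles its parent in sequence, so part of its reads may belong to Rps4x.

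The remaining second copies each had their own pattern. Rpl7l1 was lower at day 3 than at day 1 (-0.61 ± 0.09 in 2iL and -0.62 ± 0.08 in SL) and lower again at day 7 (-0.50 and -0.40), and ended at 106 to 135 CPM at day 7 from 252 to 268 CPM at day 1. Rpl36al, a copy of the X-linked Rpl36a, was lower at day 7 than at day 3 in both media (-0.45 and -0.46) and lower in Neural than in EB (0.25) and EpiSC (0.49) at days 5 and 7. Rpl22l1 is a paralog of Rpl22 that binds RNA and is known to counteract it in blood cells. At days 5 and 7 it was at 34.2, 37.1, 39.9 and 33.5 CPM in EB, 22.8, 23.9 and 25.2 CPM in EpiSC and 19.0, 12.3, 15.5 and 16.9 CPM in Neural libraries, with no overlap between the 3 courses. EB was above Neural by 1.18 ± 0.18 and EpiSC by 0.57 ± 0.20, and Rpl22 was higher as well (0.71 and 0.50). Rps27l was lower at day 7 than at day 3 (-0.23 in 2iL and -0.29 in SL) and stayed between 72.3 and 154 CPM. Rpl3l, below the level set for members, was at 0 to 0.839 CPM, with 0 to 2 counts in each library of days 5 and 7.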

How the data were processed

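Reads were trimmed with TrimGalore, aligned to GRCm38 with TopHat2 and Ensembl models, and assigned to genes on their strand with featureCounts. The files hold the counts per gene that the authors deposited, with no normalization. Tool versions are not given in the sources used here. CPM, TMM factors and edgeR quasi-likelihood fits (edgeR 4.0.16, R 4.3.3; filterByExpr, Benjamini-Hochberg adjustment over all genes) were computed here. Depth was 13093226 to 39804240 counts.

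Days were compared within a medium with day and course as terms, media and courses in the 41 libraries from day 1 on with a factor for each course and day, and the media at day 0 in 4 libraries. SE is the estimate divided by the root of F. The pairing by course comes from the labels. Over 17107 genes, the residual of a library after its day's average was removed correlated at 0.42 (2iL) and 0.43 (SL) on average within a course. Between courses it correlated at -0.20 and -0.21, but with 3 courses centred on their average these negative values follow from the positive ones. A course is also a differentiation condition, so these values do not test it as a replicate pairing. No 2 libraries of a medium and day agreed within sampling noise. Log2 values of single libraries carry a pseudocount of 0.5 CPM. All scripts with tests were tested on simulated data. The members and gene lists were chosen with earlier results of these data known. All members could be named; values are given for second copies, their parents, X-linked and P stalk genes, the 3 most abundant members and the 2 largest rises and falls called in a comparison. Of other genes at most 3 a list, with the largest changes, were named, and any further gene was chosen after its values were seen. Figures and sums used Python 3.11.15. Promoters and gene positions come from RefSeq and GENCODE tables of GRCm38. Protein sequences were not used here, and values of some genes are not reported here. Alternatives were DESeq2 1.42.0, other scalings, no filter, no replicate block, each course or medium left out and, chosen after seeing the data, protein-coding genes alone.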

Additional observations from a re-analysis of the deposited data

Results flagged for a closer look

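The difference between media changed from days 1 to 2 to days 5 and 7, by a test of the change itself in edgeR, for 4 members. For Rpl10l the change was -2.54 ± 0.34 (adjusted p = 5.5e-05) and for Rpl39l -1.84 ± 0.39 (adjusted p = 0.0029), from a higher level in 2iL to no call at late days. For Rplp0 it was 0.23 ± 0.08 (adjusted p = 0.045) and for Rps27l 0.30 ± 0.09 (adjusted p = 0.027). With any course left out, neither of these rises was called. Outside the members, 21 rows of ribosomal protein pseudogenes and retrogenes held counts that no comparison used: a median of 0.172% of a library's counts, from 0.101% to 0.247%, with 7 rows at a mean of 10 CPM or more. The highest were Rps2-ps10 (432 to 1125 CPM) and Rps2-ps6 (248 to 678 CPM). How far these counts belong to the parent genes was not tested.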

How the results depend on the processing

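DESeq2 size factors left each of the 15 counts of called members within 1.5 times its main value, and so did the fit on protein-coding genes alone, which was added after seeing the data. Library totals alone gave 0 members for day 1 against day 0 in 2iL, 7 for days 1.5 and 2 in 2iL, 34 for EB against Neural at days 1 to 2 and 11 for EpiSC against Neural at days 1 to 2. With no filter on low counts the day 1 count in 2iL was also 0. DESeq2's Wald test gave 32 members for day 1 in SL, 7 for EpiSC against Neural at days 1 to 2 and 3 for the media at days 5 and 7. Without the replicate block of course, the counts were 0 (day 1, 2iL), 2 (days 1.5 and 2, 2iL), 6 (day 7 against day 3, 2iL), 2 (day 1, SL), 5 (day 3 against day 1, SL, 1 of them higher and 4 lower), 7 (day 7 against day 3, SL), 5 (media at days 1 to 2) and 1 (the change between media), and the late counts between courses were 68 and 59.

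With 1 course or medium left out, counts ran from 0 to 7 for day 1 in 2iL, 0 to 14 for days 1.5 and 2, 2 to 5 for day 3 and 5 to 49 for day 7. In SL they ran from 0 to 20 for day 1, 4 to 16 for day 3 (5 without EB and 4 without EpiSC, all lower) and 5 to 15 for day 7. For the media they ran from 4 to 9 at day 0 (9 without the Neural library), 6 to 28 at days 1 to 2 and 0 to 0 at days 5 and 7, and from 2 to 11 for the change. For EB against Neural they ran from 8 to 30 at days 1 to 2 (30 without SL) and 39 to 75 at days 5 and 7, and for EpiSC against Neural from 0 to 8 and from 41 to 52. Of 340 refitted values of single genes, 282 kept direction and call, 58 kept the direction and lost the call, and none reversed. These were the 2 largest rises and falls called in each comparison, so no call could be gained and a reversal was unlikely. Among the refitted counts of called members, the direction with more calls switched in 4 refits without a course or medium and in 1 other refit. The causes were not tested. A level of 1 or 50 CPM in place of 10 gave 84 or 80 members. At day 7 counts of 3 to 5 reads limit what Rpl39l and Rpl10l can show.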
